A study of Mus musculus with 4 samples.

Results

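The genes described are 10 members of the BCL2 family that control survival and death of the cell: *Mcl1*, *Bcl2l1*, *Bcl2* and the near-identical copies *Bcl2a1a*, *Bcl2a1b* and *Bcl2a1d*, which protect the cell, and *Bcl2l11*, *Bid*, *Bax* and *Bak1*, which promote its death. They were taken by name from 28585 genes listed, by a rule that uses no measured value although the set was proposed with earlier results of these data known, and all 10 passed the filter on low values that left 17953 genes for testing. They were measured by bulk RNA sequencing of PMN-MDSCs, neutrophil-like suppressor cells, from the spleens of mice on postnatal day 7. The 2 *Dhps* cko libraries came from Dhps fl/fl Lysm cre mice, in which a Cre recombinase driven by the *Lyz2* (*Lysm*) locus deletes floxed *Dhps*, the gene of deoxyhypusine synthase, in myeloid cells. The 2 *Dhps* flox libraries came from mice with the floxed alleles and no Cre, so Cre and the altered *Lyz2* locus cannot be told apart from the deletion. Both genotypes were on a C57BL/6J background and untreated as far as the labels say, and 300000 cells gated as CD11b+ Ly6C lo/- Ly6G+ were isolated for each library. Such a gate may, by the study's own account, hold polymorphonuclear cells as well as PMN-MDSCs. The study describes the pups of both genotypes as littermates. The labels do not say whether replicates were separate pups or pools, or from which litter each came, so p-values measure only the spread between these samples.

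Proteins of this family meet at the outer membrane of the mitochondrion. BAX and BAK, when activated, assemble into pores that release cytochrome c and lead to caspase activation, BIM (encoded by *Bcl2l11*) and BID activate them, and MCL1, A1 (encoded by the *Bcl2a1* copies), BCL-XL (encoded by *Bcl2l1*) and BCL2 bind and restrain the death-promoting members. Neutrophils are short-lived cells known to depend on MCL1, a protein with rapid turnover, and to carry A1 with little BCL2. Much of the control in this family acts on the proteins, which RNA does not show.

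Values are FPKM, fragments per gene adjusted for the length of its transcripts and for library size, which can be compared between genes. The FPKM of a library summed to between 304281.1 and 319286.4, and the steps between low values gave approximate depths between 29550000 and 31700000 fragments. Of the 12 neutrophil markers examined, 12 were detected, and *Ly6g*, the surface marker of the gate, was at 222 and 242 FPKM in *Dhps* cko and at 195 and 185 FPKM in *Dhps* flox. *Dhps* itself was at 2.38 and 2.59 FPKM in *Dhps* cko and at 3.57 and 3.11 FPKM in *Dhps* flox, a log2 fold change of -0.41 (SE 0.13, adjusted p = 0.629, limma). The message of *Lyz2*, the locus that drives Cre, was at 2245 and 2380 FPKM against 6874 and 6544 FPKM (log2 fold change -1.54, SE 0.08, adjusted p = 0.083). Each of 4 Y-linked genes lay lower in *Dhps* cko without overlap (*Ddx3y* at 2.14 and 2.47 against 5.57 and 4.92 FPKM), and *Xist*, transcribed from the inactive X chromosome, lay higher (27.54 and 20.27 against 16.25 and 17.17 FPKM). Both kinds of transcript were present in all 4 libraries, and the part of sex in the differences below was not tested.

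The 10 genes spanned a wide range of transcript levels in the same order in both genotypes at the top and bottom. *Mcl1* was the most abundant member, at 120 to 146 FPKM over the 4 libraries and rank 242 of 17953 genes by mean level. *Bak1* came next at 27.5 to 34.5 FPKM, followed by *Bid* at 11.6 to 13.0 FPKM and *Bcl2l1* at 8.49 to 8.96 FPKM. The range of *Bax*, 3.37 to 4.84 FPKM, overlapped that of *Bcl2a1b* above it, 4.68 to 5.54 FPKM, and that of *Bcl2a1a* below it, 3.27 to 4.39 FPKM. The ranges of *Bcl2a1d* and *Bcl2l11* also overlapped, between 2.38 and 3.06 FPKM. *Bcl2*, the founding survival gene of the family, was the least abundant at 0.27 to 0.41 FPKM and rank 13945. *Mcl1* transcripts therefore exceeded *Bcl2* transcripts by 317-fold to 542-fold within a library.

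**Figure D1:**
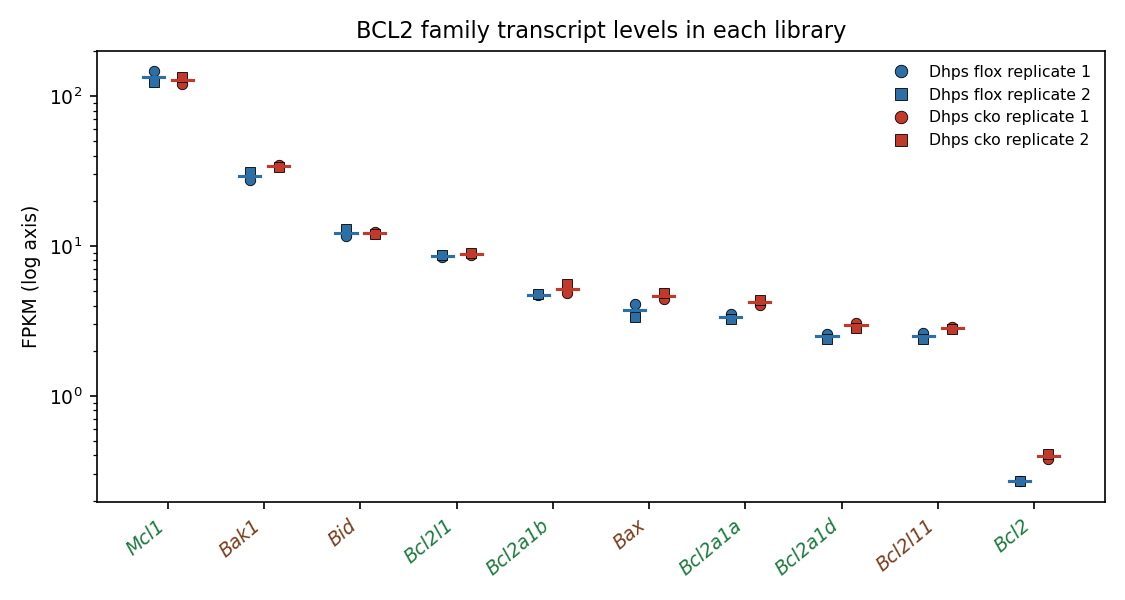
FPKM (log axis) of the 10 members in each library, ordered by mean level, with gene names in green for survival and brown for death genes, circles for replicate 1, squares for replicate 2 and horizontal lines for the mean of each genotype. *Mcl1* lies above 120 FPKM and *Bcl2* below 0.42 FPKM in every library.

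None of the 10 members passed the test between genotypes at an adjusted p under 0.05 (limma on log2(FPKM + 0.1), Benjamini-Hochberg over all 17953 genes), a threshold that 1 gene or 0.00557% of all genes passed, the predicted gene *Gm20716*, which was listed at 0 in both *Dhps* flox libraries and at 5.60 and 5.75 FPKM in *Dhps* cko (adjusted p = 0.0236). At an unadjusted p under 0.05, 2 members were higher in *Dhps* cko, *Bak1* and *Bcl2a1a*, where 4.72% of all genes were, and 0 members were lower, where 2.28% were. The genotypes did not overlap for 7 of the 10 members, each higher in *Dhps* cko, against 20.0% of all genes, and for 0 members in the lower direction, against 16.0%. With the *Bcl2a1* copies counted as 1 gene, 5 of 8 did not overlap and were higher. Among the 13721 genes whose mean level lay between those of *Bcl2* and *Mcl1*, the share that did not overlap and was higher was 20.6%. The median log2 fold change was 0.20 over the members, 0.18 over the 6 survival genes and 0.20 over the 4 death genes, against 0.01 over all genes, so both arms of the family lay on the same side of the median of all genes.

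**Figure D2:**
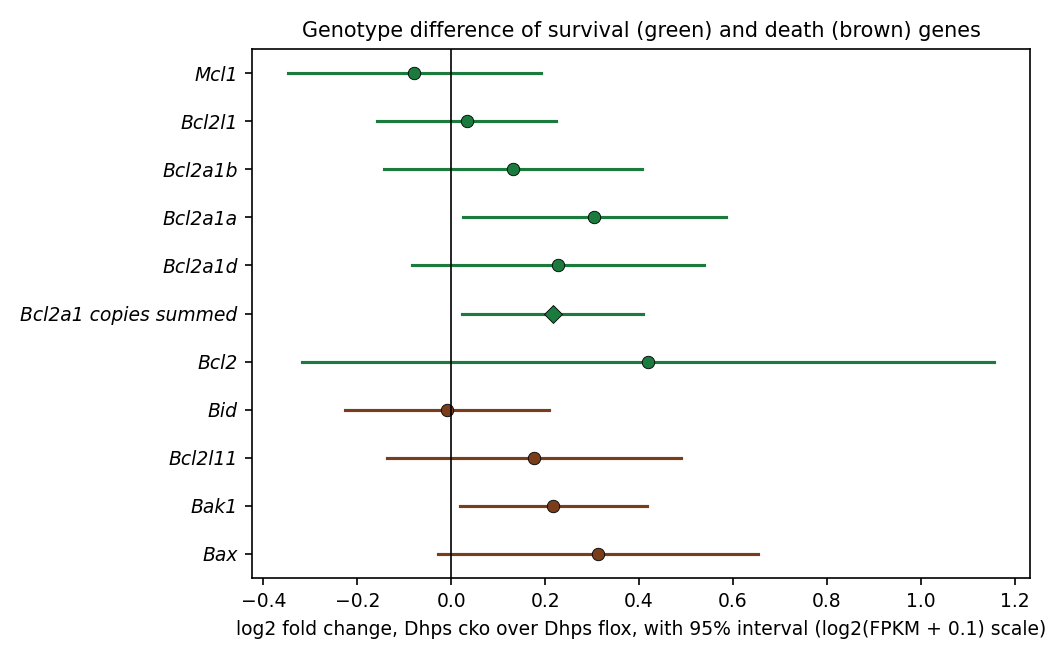
Log2 fold change of *Dhps* cko over *Dhps* flox for each member and for the summed *Bcl2a1* copies (diamond), with 95% intervals as lines, survival genes in green and death genes in brown. The intervals of *Bcl2a1a*, *Bak1* and the summed copies lie above 0 before adjustment, and those of the other genes cross 0.

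Among the survival genes, the most abundant did not differ detectably. *Mcl1* (ENSMUSG00000038612, chromosome 3 from 95658788 to 95663176 on the plus strand, GRCm38) was at 120.47 and 134.17 FPKM in *Dhps* cko and at 146.28 and 123.22 FPKM in *Dhps* flox. The highest value was in *Dhps* flox and the lowest in *Dhps* cko, and the genotypes overlapped. The means were 127 ± 9.69 (SD, n = 2) and 135 ± 16.3 FPKM (SD, n = 2), the log2 fold change was -0.08 (SE 0.10, adjusted p = 0.915, limma), and its 95% interval ran from -0.35 to 0.19. The sign turned when *Dhps* flox replicate 1 was left out (0.05).

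*Bcl2l1* (ENSMUSG00000007659, chromosome 2 from 152780668 to 152831728, minus strand) had the steadiest level of the family, at 8.67 and 8.96 FPKM in *Dhps* cko and at 8.49 and 8.74 FPKM in *Dhps* flox. The 4 values interleaved, and the log2 fold change was 0.03 (95% interval -0.16 to 0.22). *Bcl2* (ENSMUSG00000057329, chromosome 1 from 106538178 to 106714274, minus strand) was at 0.38 and 0.41 FPKM in *Dhps* cko and at 0.27 FPKM in both *Dhps* flox libraries. The genotypes did not overlap, but these levels stand for only about 90 and about 60 fragments per library (about 60 to 140 for each A1 copy and 110 to 170 for *Bax*, which are short), and the log2 fold change of 0.42 had an SE of 0.29 and an adjusted p of 0.814 (limma). It was 0.14 with a pseudocount of 1. *Bcl2* is also a gene of lymphocytes, whose marker sums were higher in the same libraries, as given below.

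The A1 genes are near-identical copies on chromosome 9, and their sequences limit how far their levels can be assigned. Each has a coding sequence of 516 bases, and *Bcl2a1a* and *Bcl2a1b* differ at 11 of them (97.9% identity), *Bcl2a1a* and *Bcl2a1d* at 7 (98.6%), and *Bcl2a1b* and *Bcl2a1d* at 6 (98.8%). The copies together differ at 12 positions, and 6 of these fall in the first 60 bases, which are shown from GENCODE M21 on GRCm38, 5′ to 3′ on the coding strand, with the positions that differ among the copies in capitals.
*Bcl2a1a* (chr9:88957051-88957110, plus strand): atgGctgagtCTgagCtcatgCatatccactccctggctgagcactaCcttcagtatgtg
*Bcl2a1b* (chr9:89199360-89199419, plus strand): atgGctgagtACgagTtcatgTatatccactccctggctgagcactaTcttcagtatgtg
*Bcl2a1d* (chr9:88731660-88731719, minus strand): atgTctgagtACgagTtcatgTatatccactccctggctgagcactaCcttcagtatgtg
Over the coding sequence, *Bcl2a1a* alone holds its base at 6 of the 12 positions, *Bcl2a1b* at 5 and *Bcl2a1d* at 1. A stretch of 100 bases of the transcript was shared exactly with another copy at 43.5% of positions in *Bcl2a1a*, 31.1% in *Bcl2a1b* and 54.7% in *Bcl2a1d*, and a stretch of 150 bases at 28.2%, 14.2% and 30.3%. The read length is not given in the sources used here, so the level of each copy is uncertain, and their sum is the safer measure.

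Summed over the 3 copies, A1 transcripts were at 11.90 and 12.77 FPKM in *Dhps* cko and at 10.77 and 10.43 FPKM in *Dhps* flox. Both *Dhps* cko libraries lay above both *Dhps* flox libraries, with means of 12.3 ± 0.615 (SD, n = 2) and 10.6 ± 0.24 FPKM (SD, n = 2), a ratio of 1.16. The log2 fold change was 0.22 (SE 0.07, 95% interval 0.02 to 0.41), with an unadjusted p of 0.0347 and an adjusted p of 0.672 (limma). With any 1 library left out, the unadjusted p was between 0.0539 and 0.139 for the sum and between 0.0645 and 0.1497 for *Bcl2a1a*. As assigned by the authors, *Bcl2a1a* (ENSMUSG00000102037, from 88956900 to 88962419, plus strand) was at 4.01 and 4.39 against 3.49 and 3.27 FPKM (log2 fold change 0.30, SE 0.11, unadjusted p = 0.0384, adjusted p = 0.684, limma). *Bcl2a1b* (ENSMUSG00000089929, from 89199209 to 89207827, plus strand) was at 4.83 and 5.54 against 4.68 and 4.75 FPKM (0.13, SE 0.11, and 0.034 without *Dhps* cko replicate 2). *Bcl2a1d* (ENSMUSG00000099974, from 88723285 to 88731914, minus strand) was at 3.06 and 2.84 against 2.60 and 2.41 FPKM (0.23, SE 0.12). In each copy the genotypes did not overlap. *Bcl2a1b* made up 40.6% to 45.5% of the sum, *Bcl2a1a* 31.4% to 34.4% and *Bcl2a1d* 22.2% to 25.7%. Of the exon bases of *Bcl2a1b*, 49.1% also belong to the predicted gene *Gm29094*, which was at 0.05 FPKM or below in all 4 libraries.

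The copies also share a stretch of their promoters. The stretches below, from RefSeq on GRCm38.p6, hold the letters TGANTCA and GAGGAAGT (a motif of ETS factors such as PU.1), shown in capitals. TGANTCA is the motif of AP-1 loosened to take any base at its centre. The copies have A there, where the AP-1 consensus has C or G. The stretches were chosen because these copies are the members that hold both.
*Bcl2a1a* (chr9:88956785-88956838, plus strand): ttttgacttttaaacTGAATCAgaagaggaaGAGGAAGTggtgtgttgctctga
*Bcl2a1b* (chr9:89199094-89199147, plus strand): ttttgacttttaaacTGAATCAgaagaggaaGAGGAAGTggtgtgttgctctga
*Bcl2a1d* (chr9:88731932-88731979, minus strand): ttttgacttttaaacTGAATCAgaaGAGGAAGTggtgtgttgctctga
The motifs are 9 bases apart in *Bcl2a1a* and *Bcl2a1b* and 3 bases apart in *Bcl2a1d*. The stretches end 82, 126 and 82 bases before the start sites of RefSeq. These sites differ from the GENCODE starts of the same genes, so the distances depend on the annotation. Both strands of the 250 bases before the start were searched. TGANTCA was found in 6.75% of 32851 promoters and among the members only in the 3 copies, and GAGGAAGT in 2.44% of promoters and among the members in the 3 copies and *Bak1*. A kappa-B motif, also searched, was in 1.21% of promoters and in 0 of the 13 promoters of the members. The loosened AP-1 pattern and the ETS motif were picked after the letters of these promoters had been read, and a match describes the sequence only.

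Of the death genes, *Bak1* and *Bax*, which form the pores, lay higher in *Dhps* cko. *Bak1* (ENSMUSG00000057789, chromosome 17 from 27019810 to 27029009, minus strand) was at 34.48 and 33.36 FPKM in *Dhps* cko and at 27.49 and 30.91 FPKM in *Dhps* flox. The genotypes did not overlap, and the means were 33.9 ± 0.792 (SD, n = 2) and 29.2 ± 2.42 FPKM (SD, n = 2), a ratio of 1.16. The log2 fold change was 0.22 (SE 0.08, 95% interval 0.02 to 0.42), with an unadjusted p of 0.0375 and an adjusted p of 0.683 (limma). Without *Dhps* flox replicate 1 the log2 fold change of *Bak1* was 0.13 (unadjusted p = 0.10, limma), and the unadjusted p was also above 0.05 without *Dhps* cko replicate 1 (0.202) or replicate 2 (0.140). *Bak1* shares 25.5% of its exon bases with *Ggnbp1* entries on the opposite strand, whose levels were between 0.32 and 3.12 FPKM, and without strand such reads cannot be told apart.

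*Bax* (ENSMUSG00000003873, chromosome 7 from 45461697 to 45466898, minus strand) was at 4.43 and 4.84 FPKM in *Dhps* cko and at 4.08 and 3.37 FPKM in *Dhps* flox. Its ratio of means was 1.24, larger than that of *Bak1*, but the *Dhps* flox libraries differed more from each other, and the log2 fold change of 0.31 had an SE of 0.13 and an adjusted p of 0.741 (limma). It was 0.18 without *Dhps* flox replicate 2 and 0.45 without *Dhps* flox replicate 1. *Bak1* transcripts exceeded *Bax* transcripts by 6.74-fold to 9.17-fold within a library. The sum of both was 38.91 and 38.20 FPKM in *Dhps* cko against 31.57 and 34.28 FPKM in *Dhps* flox.

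The activators gave no common direction. *Bcl2l11* (ENSMUSG00000027381, chromosome 2 from 128126038 to 128162547, plus strand), which encodes BIM, a BH3-only protein that binds all of the survival proteins, was at 2.89 and 2.79 FPKM in *Dhps* cko and at 2.63 and 2.38 FPKM in *Dhps* flox, without overlap (log2 fold change 0.18, SE 0.12, adjusted p = 0.816, limma, and 0.11 without *Dhps* flox replicate 2). *Bid* (ENSMUSG00000004446, chromosome 6 from 120891930 to 120916853, minus strand), whose protein links death receptors to the mitochondrion once caspases cleave it, was at 12.37 and 11.96 against 11.57 and 12.96 FPKM. Both extremes of *Bid* were in *Dhps* flox, and its log2 fold change was -0.01 (95% interval -0.23 to 0.21), with a sign that turned without *Dhps* cko replicate 2 or without *Dhps* flox replicate 2. Of the exon bases of *Bid*, 17.7% overlap *Bcl2l13* on the opposite strand, which was at 7.22 to 8.02 FPKM.

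The balance of the family was described by the FPKM of the 6 survival genes divided by that of the 4 death genes, as a description with no test. The smallest p that an exact permutation test allows in this design is 0.33. The survival sum was 141.42 and 156.31 FPKM in *Dhps* cko and 165.81 and 142.66 FPKM in *Dhps* flox, and the genotypes overlapped. The death sum was 54.17 and 52.95 FPKM in *Dhps* cko and 45.77 and 49.62 FPKM in *Dhps* flox, with both *Dhps* cko libraries above both *Dhps* flox libraries and a ratio of means of 1.12. The survival to death ratio was 2.61 and 2.95 in *Dhps* cko and 3.62 and 2.88 in *Dhps* flox. Survival transcripts thus outnumbered death transcripts in all 4 libraries, and the genotypes overlapped, with means of 2.78 ± 0.241 (SD, n = 2) and 3.25 ± 0.529 (SD, n = 2). *Dhps* flox replicate 1 stood apart as the library with the most *Mcl1* and the least *Bak1*.

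**Figure D3:**
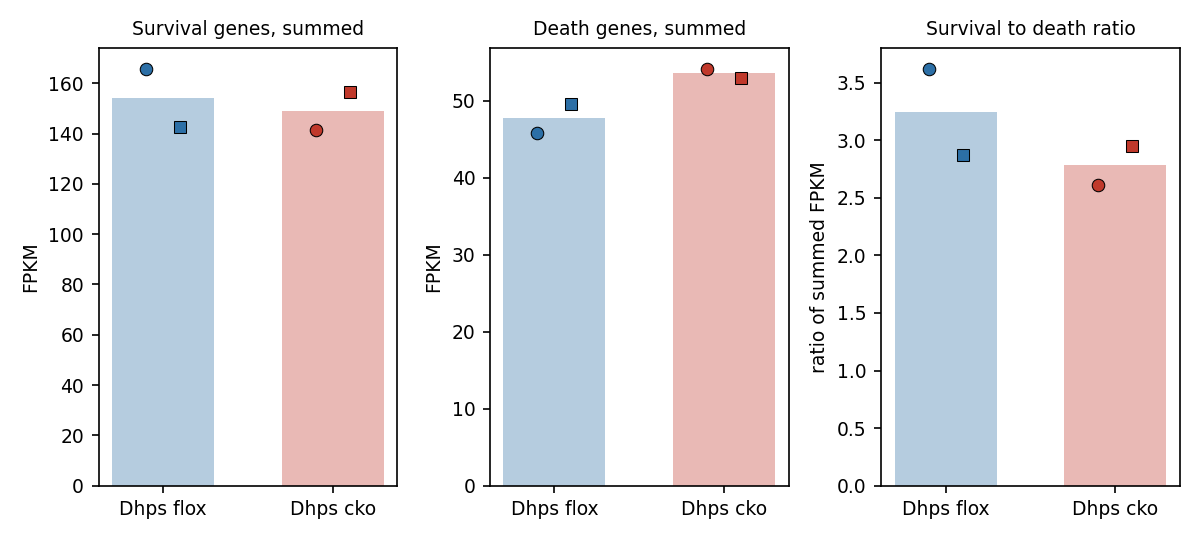
Summed FPKM of the 6 survival genes, summed FPKM of the 4 death genes and their ratio in each library, with bars for the means of each genotype, circles for replicate 1 and squares for replicate 2. The death sums of *Dhps* cko, 54.17 and 52.95 FPKM, lie above those of *Dhps* flox, while the survival sums and the ratios overlap.

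A few abundant genes set these sums. *Mcl1* gave 85.2% and 85.8% of the survival sum in *Dhps* cko and 88.2% and 86.4% in *Dhps* flox, and *Bak1* gave 63.7% and 63.0% of the death sum against 60.1% and 62.3%. The A1 copies gave 8.41% and 8.17% of the survival sum in *Dhps* cko and 6.50% and 7.31% in *Dhps* flox. Without *Mcl1* the ratio was below 1 in every library, at 0.387 and 0.418 in *Dhps* cko and 0.427 and 0.392 in *Dhps* flox, again with overlap. Without the A1 copies it was 2.39 and 2.71 against 3.39 and 2.66.

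Ratios of single pairs of genes went in different directions. *Mcl1* over *Bcl2l11* was 41.7 and 48.1 in *Dhps* cko and 55.6 and 51.8 in *Dhps* flox, lower in both *Dhps* cko libraries. *Bcl2l1* over *Bak1* was likewise lower, at 0.251 and 0.269 against 0.309 and 0.283. In contrast, *Bcl2* over *Bax* was higher, at 0.0858 and 0.0847 against 0.0662 and 0.0801. *Mcl1* over *Bak1*, the ratio of the most abundant survival and death genes, overlapped at 3.49 and 4.02 against 5.32 and 3.99.

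The genes around the family, in 8 lists of 57 genes of which 49 were tested, gave 0 genes at an adjusted p under 0.05, 3 higher at an unadjusted p under 0.05 (4.72% of all genes) and 0 lower (2.28%). Of the 49, 13 (26.5%) did not overlap and were higher in *Dhps* cko, against 20.0% of all genes, 9 (18.4%) did not overlap and were lower, against 16.0%, and the median log2 fold change was 0.03. *Bcl2l2*, the only other survival gene of the family analysed here, overlapped between genotypes at 1.41 and 1.02 against 1.35 and 1.46 FPKM.

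The other BH3-only genes, whose proteins neutralise the survival members, had 4 of 4 log2 fold changes above 0, where 52.2% of all genes did. *Pmaip1*, which encodes NOXA, a partner of MCL1 and A1, was at 4.83 and 4.98 FPKM in *Dhps* cko and at 3.90 and 3.86 FPKM in *Dhps* flox. Its log2 fold change was 0.33 (SE 0.09), with an unadjusted p of 0.0161 and an adjusted p of 0.578 (limma). *Bmf*, whose protein is tethered to the cytoskeleton in healthy cells, was at 2.82 and 3.04 against 2.09 and 2.31 FPKM (log2 fold change 0.40, SE 0.13, unadjusted p = 0.0263, adjusted p = 0.629, limma). Both genes were separated by genotype. *Bad*, which growth factor signals hold in check, overlapped at 4.72 and 4.48 against 4.60 and 3.95 FPKM, and so did *Bbc3*, the gene of PUMA, at 1.35 and 1.68 against 1.25 and 1.76 FPKM.

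Downstream, the 12 apoptosome and caspase genes had a median log2 fold change of 0.03, and 0 reached an unadjusted p under 0.05. *Apaf1*, the scaffold of the apoptosome, was at 21.55 and 21.41 FPKM in *Dhps* cko and at 21.87 and 22.46 FPKM in *Dhps* flox. Among the 6 inhibitors of caspases the median was -0.07, and *Birc5* (18.95 and 18.31 against 18.20 and 18.31 FPKM) and *Birc3* (17.82 and 16.79 against 16.18 and 16.86 FPKM) overlapped or met between genotypes. *Cflar*, at 12.37 and 11.69 against 13.17 and 12.59 FPKM, and *Birc2*, at 9.02 and 8.89 against 10.18 and 9.07 FPKM, did not overlap and were lower in *Dhps* cko. The 5 tested genes of the other BCL2-related list had a median of -0.01, with *Bnip3l*, a receptor for removal of mitochondria, at 60.95 and 65.13 against 66.64 and 59.97 FPKM.

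Upstream, all 7 tested genes of the death receptor pathway had log2 fold changes above 0 (52.2% of all genes) and 5 did not overlap (20.0% of all genes), with a median of 0.12. *Fas*, a death receptor itself, was at 4.63 and 4.73 FPKM in *Dhps* cko and at 4.0 and 3.84 FPKM in *Dhps* flox (log2 fold change 0.25, SE 0.09, unadjusted p = 0.0454, adjusted p = 0.700, limma). *Tnfrsf1a*, the first receptor for TNF, was at 81.05 and 78.15 against 69.39 and 77.03 FPKM, and *Ripk1*, a kinase of its signalling complex, overlapped at 12.47 and 12.53 against 11.62 and 13.32 FPKM. The 6 genes for turnover of MCL1 and BIM had a median of -0.11, with *Usp9x*, a deubiquitinase of MCL1, at 8.75 and 7.75 against 9.30 and 9.05 FPKM and *Huwe1*, a ubiquitin ligase of MCL1, at 7.37 and 6.37 against 7.15 and 8.31 FPKM. The 8 cytokine receptors that carry survival signals had a median of 0.06. The most abundant were *Csf3r*, the receptor for G-CSF, at 224.79 and 218.72 against 195.03 and 215.15 FPKM, and *Csf2ra*, part of the receptor for GM-CSF, at 117.24 and 115.66 against 100.29 and 116.37 FPKM.

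**Figure D4:**
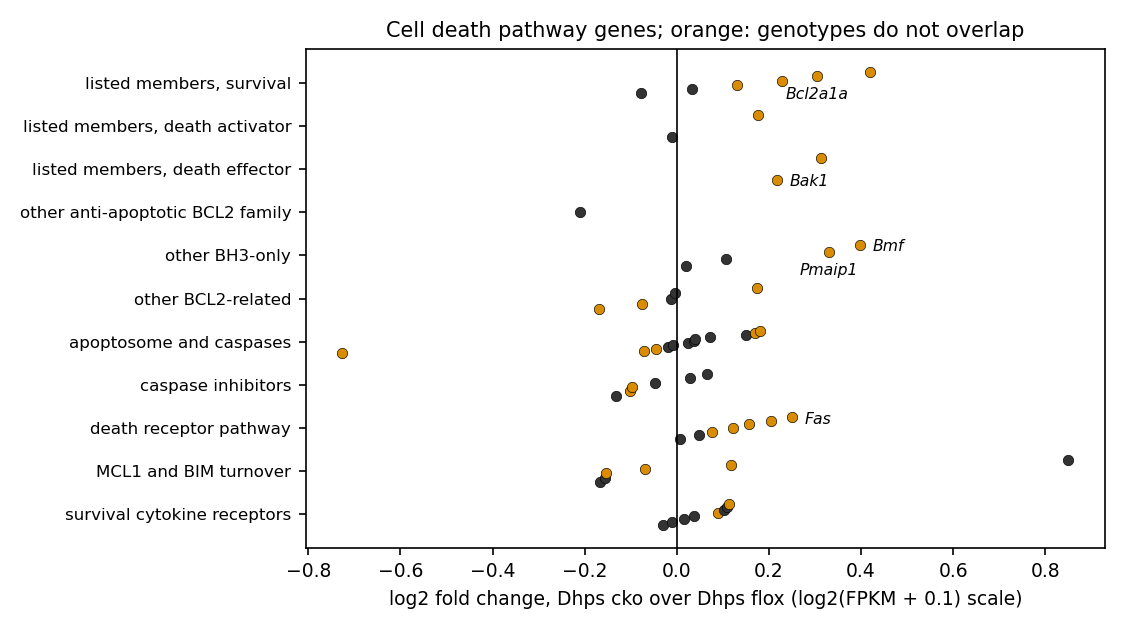
Log2 fold change of *Dhps* cko over *Dhps* flox for the members, by role, and for the genes of 8 further lists, 1 point per tested gene, in orange where the genotypes did not overlap and dark where they did, with names for genes at an unadjusted p under 0.05. The 4 other BH3-only genes, the 7 death receptor genes and the death effectors *Bak1* and *Bax* lie at or above 0. Genes of the other rows lie on both sides or, for *Bcl2l2*, below 0.

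The summed markers of neutrophils, B cells, T cells, monocytes and macrophages, and eosinophils lay higher in both *Dhps* cko libraries. At an adjusted p under 0.05 (limma), 0 genes of any marker list passed. Of all genes, 52.2% had log2 fold changes above 0 and 20.0% did not overlap and were higher. The latter held for 4 of 12 neutrophil, 7 of 8 B cell, 5 of 8 T cell, 8 of 10 monocyte and macrophage, 4 of 6 eosinophil, 1 of 5 primary granule and 1 of 6 erythroid markers. In bulk samples more cells of a type and more RNA per cell cannot be told apart. All 8 B cell markers had values above 0 (median log2 fold change 0.66), with sums of 67.5 and 70.4 FPKM in *Dhps* cko and 43.2 and 52.4 FPKM in *Dhps* flox, and all 8 T cell markers did (median 0.67), with sums of 18.47 and 14.98 against 11.86 and 8.01 FPKM. Of the 10 monocyte and macrophage markers, 9 had values above 0 (median 0.26) and *Mertk* was lower without overlap, at 4.11 and 4.02 against 4.75 and 4.44 FPKM, with sums of 393 and 387 against 321 and 322 FPKM, as had all 6 eosinophil markers (median 0.49), with sums of 14.0 and 12.4 against 9.32 and 9.06 FPKM. All 5 primary granule markers of early neutrophils had values above 0 (median 0.55), as had all 6 erythroid markers (median 0.13), but both lists overlapped in sum, at 81.3 and 54.5 against 46.3 and 56.5 FPKM and at 455 and 545 against 371 and 557 FPKM. Of the 12 neutrophil markers, 10 had values above 0 (median 0.08). They summed to 77526 and 79945 FPKM in *Dhps* cko and to 77509 and 73002 FPKM in *Dhps* flox over all 12. No marker of any list was at 0 in all libraries. The part of these cells in the values of *Bcl2*, *Bax*, *Bak1* and the A1 copies was not tested.

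Transcript length moved with the genotype difference as well. When genes averaging 1 FPKM or more were divided by their longest transcript into 5 groups of equal size, the median log2 fold change was 0.10, 0.06, 0.02, -0.02 and -0.06 from the shortest group to the longest. The share that did not overlap and was higher in *Dhps* cko was 30.8% in the shortest group and 7.81% in the longest. The 3 A1 copies, with transcripts of 817 to 863 bases, and *Bax*, with 1100 bases, belong to the shortest group, and each lay above its median. *Bcl2l11*, with 5036 bases, and *Bcl2*, with 7191 bases, are as long as the longest group and also lay above its median, at log2 fold changes of 0.18 and 0.42. The part of length in the differences was not tested.

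**Figure D5:**
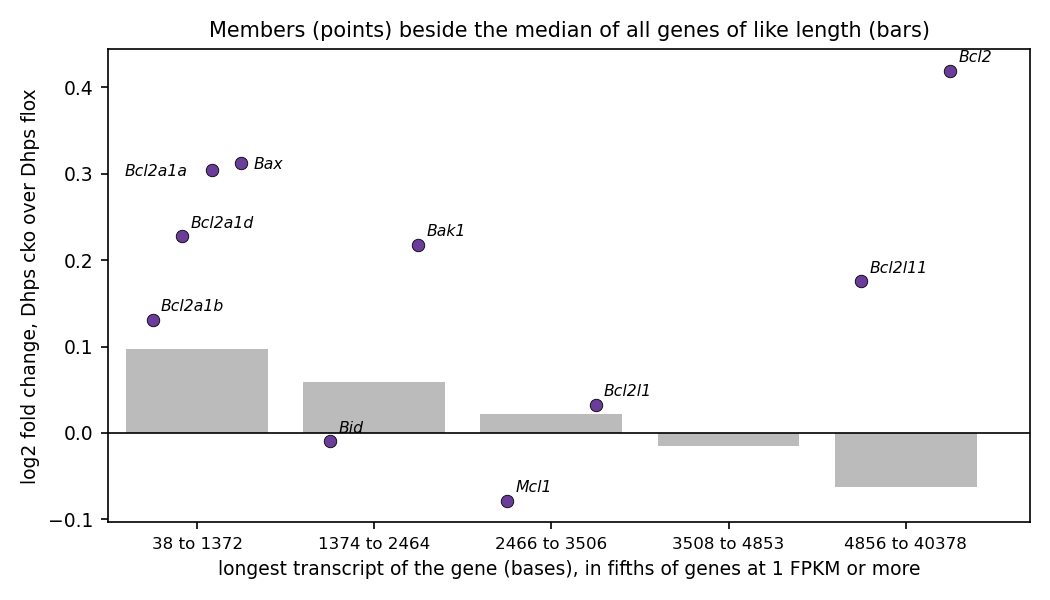
Log2 fold change of *Dhps* cko over *Dhps* flox for each member (points) at the group its longest transcript falls in, beside the median of all genes averaging 1 FPKM or more in that group (bars). Bars decline from 0.10 to -0.06, 8 members lie above the bar of their length, *Mcl1* and *Bid* lie below it, and *Bcl2*, under 1 FPKM, is placed by its length alone.

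Over the 4 libraries, the genes most like *Mcl1* among 10629 that averaged 1 FPKM or more were *Tmem115*, at 7.89 and 8.68 FPKM in *Dhps* cko and 9.44 and 8.07 FPKM in *Dhps* flox, followed by *Gm4739* and *Esco1*. Their root mean square differences from *Mcl1* on the centred log2 scale were 0.011, 0.011 and 0.012. Those most like the summed A1 copies were *Grik5*, at 1.56 and 1.67 against 1.39 and 1.34 FPKM, *Gm28901* and *Tbc1d10a*, with differences of 0.0062, 0.0081 and 0.0082. With 4 libraries and this many genes, close matches of this kind are a description only.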

How the data were processed

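Gene-level FPKM of 4 libraries, rounded to 2 decimals, were deposited by the authors, who made them from sequencing reads with Cutadapt, HISAT2 (mm10, per the labels), StringTie and ballgown. The annotation, strand setting and read length are not given in the sources used here. FPKM carry no counts, and at the approximate depths 39.3% to 42.2% of low values lay within 0.15 of a whole step. By chance 30% would at a depth fixed beforehand, but these depths were chosen from the same values, which raises that share. Whole reads were therefore not recovered and no count test was run.

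Genes averaging 0.1 FPKM or more were compared as log2(FPKM + 0.1) with limma 3.58.1 in R 4.3.3 (eBayes with a trend, two-sided, Benjamini-Hochberg adjustment, threshold 0.05, no replicate block). The pseudocount understates changes of low genes. The fit was tested on simulated data. Genotypes are said not to overlap when both libraries of one lie beyond both of the other. The summed A1 copies replaced the single copies in a fit of their own. Other sums, ratios, lists and motifs have no test. Python 3.11.15, pandas 2.3.3 and matplotlib 3.10.9 were used. Coordinates are from GENCODE M21, which holds 28511 of the gene identifiers and lacks 74.

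The members and lists were chosen with earlier results of these data known. Named were all members, *Dhps*, *Lyz1* and *Lyz2*, genes with an adjusted p under 0.05, and from each list genes with an unadjusted p under 0.05, the 2 most abundant, and others with their values. The values of 1 gene that this rule names are not reported here. *Lyz1* was at 17.64 and 17.06 against 18.25 and 16.50 FPKM. For likeness, the 3 nearest genes were taken. The alternatives changed the pseudocount, the filter, the scaling or the variance model, added a replicate block, or left out each library.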

Additional observations from a re-analysis of the deposited data

How the results depend on the processing

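No member had an adjusted p under 0.05 in any of the 14 alternatives run, of which the filter at 1 FPKM left out *Bcl2* and tested the other 9. The number of genes at that threshold, 1 as reported, was 0 with a pseudocount of 0.01, 0 without a filter, 0 with a model of each gene alone, 4 among genes averaging 1 FPKM or more, 2 with FPKM rescaled to 1 common sum, 2 after quantile normalization, and 0 to 0 when a library was left out. The number of members at an unadjusted p under 0.05, 2 as reported, was 0 with rescaled FPKM, 1 after quantile normalization, 1 without a trend, 1 with a model of each gene alone, and 0 to 1 when a library was left out. *Bcl2* is not among the 2 reported. Its 2 *Dhps* flox values were equal at the 2 decimals given (0.27 FPKM), so its own spread there was listed as 0. Without a trend and with each gene alone the 1 member was *Bcl2* (unadjusted p = 0.0179 and 0.0107). It was *Bax* without *Dhps* flox replicate 1 (0.0378), and *Bak1* remained after quantile normalization (0.0432) and without *Dhps* flox replicate 2 (0.0174). Where 1 library is left in a genotype, it is assumed to vary like the others. Of 139 log2 fold changes of members under the alternatives, 136 kept their sign and 3 reversed. With a library left out, *Mcl1* ranged from -0.20 to 0.045, with a positive value without *Dhps* flox replicate 1, and *Bid* from -0.091 to 0.072, with positive values without *Dhps* cko replicate 2 (0.014) or *Dhps* flox replicate 2. The log2 fold change of the summed A1 copies ranged from 0.17 to 0.27, but their unadjusted p lay above 0.05 with rescaled FPKM (0.0610), without a trend (0.111), with each gene alone (0.0600) and with a replicate block (0.0795). The survival to death ratio of *Dhps* cko over *Dhps* flox, 0.856, ranged from 0.77 to 0.97 when a library was left out. With a replicate block, 0 genes had an adjusted p under 0.05 and 0 members an unadjusted p under 0.05. The genotypes are described as littermates, but no source ties a replicate number to a litter or day, and deviations of same-numbered libraries correlated at -0.057 over 10629 genes, so the numbers were not taken as pairs. Depth is known only approximately, and *Bcl2*, *Bax* and each A1 copy rest on about 60 to 170 fragments per library. The cause of these changes was not tested.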
